A study of Mus musculus with 16 samples.

Results

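To see which stem cell and differentiation genes were switched on in gonocytes of the newborn testis, 10 regulators of the germline were followed in single cells of testes from mice at postnatal day 2 (P2). The genes were *Nanos2*, *Nanos3*, *Lin28a*, *Pou5f1*, *Dppa3*, *Sall4*, *Zbtb16*, *Dazl*, *Sohlh1* and *Id4*, 10 of the 30451 genes of a table of unique molecular identifier (UMI) counts, in which each UMI stands for 1 captured mRNA read near its 3′ end. The genes were given by name, and that choice was made with earlier results of these data known. Whole testes came from wild-type mice and from *Ddx5* conditional knockout mice, in which *Mvh*-Cre, active in germ cells, deletes floxed alleles of *Ddx5*, an RNA helicase gene. The controls are labelled only as wild type, and a GFP transgene was counted in germ cells of both libraries (the study used *Oct4*-GFP mice to sort gonocytes). Although 8 libraries are numbered in the labels of either genotype, their barcodes are mixed in the table. Each genotype is therefore 1 library here, no test was run, and intervals are 95% intervals for counting error only. The table does not pair its 2 barcode suffixes with a genotype, and suffix 3 was taken as wild type from the numbers of cells, so that the genotype of a library is a match and not a label of the table.

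Germ cells were the cells with a UMI of at least 3 of *Ddx4*, *Mael*, *Stk31* and *Slc25a31*, which encode an RNA helicase, piRNA pathway proteins and a mitochondrial carrier of the germline. None of these 4 markers is among the 10 regulators. In wild type 124 of 6329 kept cells met this rule (1.96%, exact Clopper-Pearson interval 1.63 to 2.33%), and 6199 cells with at most 1 marker served as somatic cells. In the library labelled *Ddx5* knockout, the knockout-labelled library, 12 of 4950 kept cells met it (0.242%, 0.125 to 0.423%). Since every result on germ cells of that library rests on 12 cells, the intervals of these results are wide.

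At P2 male germ cells of the mouse are gonocytes, also called prospermatogonia, which leave mitotic arrest and give rise to the first spermatogonia. NANOS2 and NANOS3 are RNA-binding proteins that bring target mRNAs to the CCR4-NOT deadenylase, and DAZL binds and regulates germ cell mRNAs. LIN28A blocks processing of let-7 microRNAs. POU5F1 (OCT4) and DPPA3 mark primordial germ cells and pluripotent cells, and both are shut off as the germline differentiates. SALL4 and ZBTB16 (PLZF) are zinc finger factors of undifferentiated spermatogonia. SOHLH1 is a basic helix-loop-helix (bHLH) factor that drives spermatogonial differentiation, whereas ID4 lacks a DNA-binding region, sequesters the E protein partners of bHLH factors and marks cells with stem cell activity.

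Wild type summed to 84263163 UMIs and the knockout-labelled library to 67558106. Germ cells were deeper than somatic cells, with a median of 34564.5 UMIs against 11106 in wild type, and germ cells of both libraries had nearly the same median (34528 UMIs in the knockout-labelled library). The targeted gene went against the label. *Ddx5* was at 1736 CPM (counts per 1e6 UMIs of the group) in knockout-labelled germ cells against 1151 CPM in wild type, a ratio of 1.51 (1.40 to 1.62). The sources used here do not say whether its 3′ tag lies in the deleted part. In the study, single-cell quantitative RT-PCR found *Ddx5* mRNA strongly reduced in sorted *Oct4*-GFP-positive knockout gonocytes at P2. The difference between these measures was not tested. CRE was counted in 9 of the 12 knockout-labelled germ cells (20 UMIs) and in 0 of 124 wild-type germ cells, which allows a share of cells with a UMI of up to 2.42%. Of the 124 wild-type germ cells 117 fell in the germ-like cluster, and 7 fell in somatic clusters and held the regulators at 336 CPM in sum against 1905 CPM.

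In the GRCm38 annotation (GENCODE) the genes lie on 8 chromosomes. *Nanos2* is at chr7:18987400-18988962, *Nanos3* at chr8:84173731-84185217, *Lin28a* at chr4:134003330-134018841, *Pou5f1* at chr17:35506018-35510772 and *Dppa3* at chr6:122626410-122630272. *Sall4* is at chr2:168748332-168767943, *Zbtb16* at chr9:48654297-48836222, *Dazl* at chr17:50279395-50293636, *Sohlh1* at chr2:25842995-25847248 and *Id4* at chr13:48261228-48266026. *Nanos2*, *Lin28a*, *Pou5f1*, *Sall4* and *Id4* each overlap a gene on the other strand, and the *Nanos3* locus holds the microRNA genes *Mir181c* and *Mir181d* on its own strand. *Dppa3* has processed copies elsewhere in the genome, so that its few reads are less certain.

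RefSeq (GRCm38.p6) gave the sequence before the start site for 7 of the 10 genes. The 250 bases before the RefSeq start of *Nanos3* and *Id4*, which were called lower in knockout-labelled germ cells, and of *Sohlh1*, which was not, are shown because SOHLH1 and the E proteins bound by ID4 bind the E-box, CANNTG, whose pattern reads the same on both strands. Capitals mark E-boxes, and each sequence is 5′ to 3′ on the strand of its gene: chr8:84176553-84176802 (minus strand), chr13:48260866-48261115 (plus strand) and chr2:25847249-25847498 (minus strand). The *Nanos3* window lies inside the span of the gene given above, before a start further downstream, and not at the first base of that span.
Nanos3: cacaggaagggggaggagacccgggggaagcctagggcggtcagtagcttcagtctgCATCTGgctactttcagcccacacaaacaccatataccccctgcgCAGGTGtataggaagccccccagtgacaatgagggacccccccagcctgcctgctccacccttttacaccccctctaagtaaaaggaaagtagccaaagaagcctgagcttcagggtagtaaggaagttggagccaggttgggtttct
Id4: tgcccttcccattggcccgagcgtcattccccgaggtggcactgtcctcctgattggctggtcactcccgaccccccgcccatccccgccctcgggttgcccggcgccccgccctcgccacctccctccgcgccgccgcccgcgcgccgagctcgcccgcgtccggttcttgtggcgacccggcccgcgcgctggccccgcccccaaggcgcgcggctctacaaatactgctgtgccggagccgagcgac
Sohlh1: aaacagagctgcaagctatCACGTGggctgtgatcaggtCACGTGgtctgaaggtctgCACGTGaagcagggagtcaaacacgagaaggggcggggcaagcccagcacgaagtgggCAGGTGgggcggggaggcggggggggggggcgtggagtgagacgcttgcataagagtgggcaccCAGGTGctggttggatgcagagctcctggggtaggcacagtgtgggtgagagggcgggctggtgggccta
*Sohlh1* had 5 E-boxes, 3 of them CACGTG, and *Nanos3* had 2. Among 32851 such windows 1.15% held at least 5 and 31.8% at least 2. *Id4* had 0 and was rich in CG dinucleotides (35 against 11 in *Sohlh1*, 3 in *Nanos3* and a median of 6). The *Nanos2* and *Lin28a* windows also had 0. These are matches of letters in 1 window, not sites of binding.

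Nearly all wild-type gonocytes carried *Dazl*, and most also carried *Sall4*, *Sohlh1*, *Id4* and *Zbtb16*, whereas *Nanos2* and *Dppa3* were found in few. *Dazl* had a UMI in 123 of 124 germ cells (99.2%, 95.6 to 99.98%), *Sall4* and *Sohlh1* in 110 each (88.7%, 81.8 to 93.7%), *Id4* in 104 (83.9%, 76.2 to 89.9%) and *Zbtb16* in 87 (70.2%, 61.3 to 78.0%). These 5 were the regulators found in at least 50% of germ cells. *Pou5f1* was found in 60 (48.4%, 39.3 to 57.5%), *Lin28a* in 55 (44.4%, 35.4 to 53.5%) and *Nanos3* in 43 (34.7%, 26.4 to 43.7%). *Nanos2* was found in 8 (6.45%, 2.83 to 12.3%) and *Dppa3* in 6 (4.84%, 1.80 to 10.2%), the latter as 1 UMI in each cell.

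**Figure D1:**
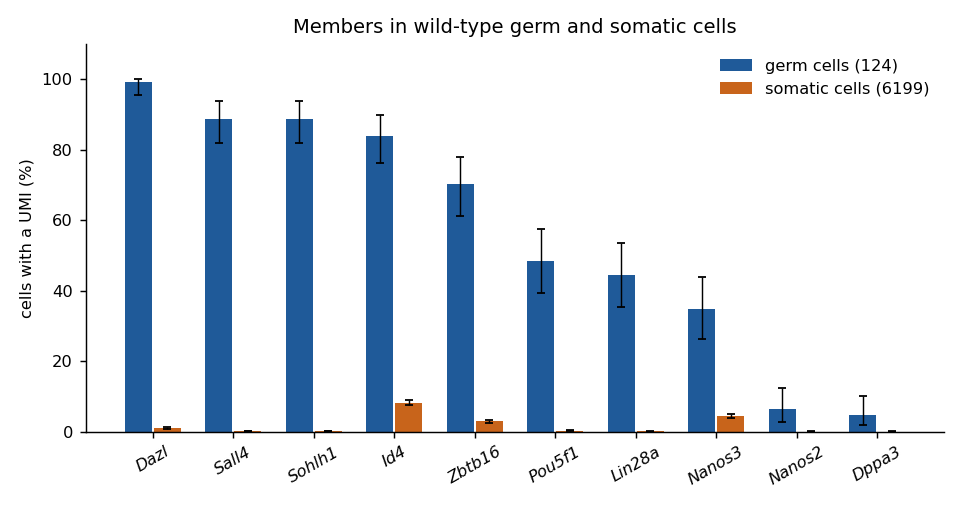
Share of cells with a UMI (%, y axis) of each of the 10 regulators in the 124 germ cells (blue) and 6199 somatic cells (orange) of the wild-type library, with 95% Clopper-Pearson intervals as bars. *Dazl* stands at 99.2% of germ cells and *Dppa3* at 4.84%, and in somatic cells *Id4* (8.23%), *Nanos3* (4.48%) and *Zbtb16* (2.90%) stand above the other 7.

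Levels followed nearly the same order, except that *Id4* passed *Sohlh1* and *Lin28a* passed *Pou5f1*. They are UMIs of 3′ tags and so are not divided by transcript length. *Dazl* led with 5251 UMIs or 1227 CPM (exact Poisson interval 1194 to 1260) and made up 65.9% of the UMIs of the 10 genes. Per cell its level ran from 0 to 2336 CPM with a median of 1260 CPM. *Sall4* was at 254 CPM (239 to 270; cell median 202 CPM, highest cell 1804 CPM), *Id4* at 134 CPM (124 to 146; cell median 120 CPM, highest 829 CPM) and *Sohlh1* at 111 CPM (101 to 121; cell median 101 CPM, highest 499.5 CPM). The intervals of *Id4* and *Sohlh1* did not overlap. *Zbtb16* followed at 61.9 CPM (54.7 to 69.8; cell median 51.0 CPM, highest 299 CPM).

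*Lin28a* (26.9 CPM, 22.2 to 32.3), *Pou5f1* (23.8 CPM, 19.4 to 28.9) and *Nanos3* (18.2 CPM, 14.4 to 22.7) were lower, with a cell median of 0 for each. *Lin28a* and *Pou5f1* overlapped in their intervals, as did *Pou5f1* and *Nanos3*. *Nanos2* (10 UMIs, 2.34 CPM, 1.12 to 4.30) and *Dppa3* (6 UMIs, 1.40 CPM, 0.514 to 3.05) overlapped as well and were lowest. A *Nanos3* level of 18.2 CPM is under 1 UMI in a cell of the median depth, so the shares of the low genes follow depth. In the 62 deeper germ cells *Pou5f1* was found in 61.3% and in the 62 shallower ones in 35.5%, at 22.3 and 27.3 CPM. Thinned to 10000 UMIs a cell, the shares were 98.0% for *Dazl*, 80.3% for *Sall4*, 66.0% for *Id4*, 63.3% for *Sohlh1*, 41.5% for *Zbtb16*, 21.4% for *Lin28a*, 21.2% for *Pou5f1* and 15.1% for *Nanos3*, over 112 cells.

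All 8 regulators with at least 20 UMIs were over 2-fold higher in germ cells than in somatic cells, with an interval that excludes 1, the rule by which a gene is called here. Of 18440 genes compared, 25.3% were called higher. *Sall4* was 1661-fold higher in germ cells (947 to 3225), *Dazl* 1459-fold (1145 to 1890), *Sohlh1* 792-fold (439 to 1597), *Lin28a* 527-fold (200.5 to 1968) and *Pou5f1* 98.5-fold (59.9 to 170.2). *Zbtb16* was 25.6-fold higher (21.2 to 31.0), *Id4* 16.3-fold (14.6 to 18.3) and *Nanos3* only 4.92-fold (3.78 to 6.33). *Nanos2*, with 10 UMIs, had none in 6199 somatic cells, which puts the somatic level at least 61.1-fold lower by a floor of 3 UMIs over that group (the exact interval starts at 41.1-fold) and allows a share of cells with a UMI of up to 0.0484%. The 10 somatic UMIs of *Dppa3* all came from 1 barcode of the macrophage-like cluster that held 34356 UMIs, had no germ cell marker and was called a doublet.

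Free RNA of burst cells can leave UMIs of a gene in droplets of other cells. *Dazl*, *Sall4*, *Sohlh1* and *Lin28a* stood in somatic cells at 0.0685, 0.0602, 0.126 and 0.190% of their germ cell CPM. The 4 germ cell markers stood there at 0.0955 to 0.233%, with *Ddx4* highest and *Slc25a31* next at 0.161%. *Ddx4* was nearly as high in somatic cells of the knockout-labelled library (0.806 against 0.917 CPM), which had fewer germ cells. *Nanos3* (20.3%), *Id4* (6.13%), *Zbtb16* (3.91%) and *Pou5f1* (1.02%, 19 UMIs in 19 cells) stood above the range of the markers. Their somatic levels were 3.71 CPM for *Nanos3* (291 UMIs in 278 cells, 4.48%), 8.23 CPM for *Id4* (646 UMIs in 510 cells, 8.23%) and 2.42 CPM for *Zbtb16* (190 UMIs in 180 cells, 2.90%).

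These 3 genes had different somatic cell types. *Nanos3* was highest in the Sertoli-like cluster, at 6.89 CPM (5.74 to 8.20; 126 UMIs in 120 of 1435 cells, 43.3% of its somatic UMIs), against 2.02 CPM in stromal-like cells (1.46 to 2.72). *Zbtb16* had the reverse pattern, with 5.45 CPM in stromal-like cells (4.51 to 6.54; 116 UMIs, 61.1% of its somatic UMIs) and 0.164 CPM in Sertoli-like cells (0.0338 to 0.479; 3 UMIs). *Id4* was broader, at 9.64 CPM in stromal-like, 5.19 CPM in Sertoli-like and 8.30 CPM in peritubular myoid-like cells. It was at 9.28 and 11.1 CPM in clusters 3 and 5, which are led by mitotic and S phase genes and carry no name, and at 3.12 CPM in Leydig-like and 1.16 CPM (1 UMI) in macrophage-like cells. At 5000 UMIs a cell the share with *Nanos3* was 3.40% in Sertoli-like and 0.950% in stromal-like cells, and the share with *Zbtb16* was 0.0825 and 2.71%. The same patterns stood in the knockout-labelled library, where *Nanos3* was at 6.28 CPM in Sertoli-like and 2.84 CPM in stromal-like cells, and *Zbtb16* at 0.235 and 4.94 CPM.

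**Figure D2:**
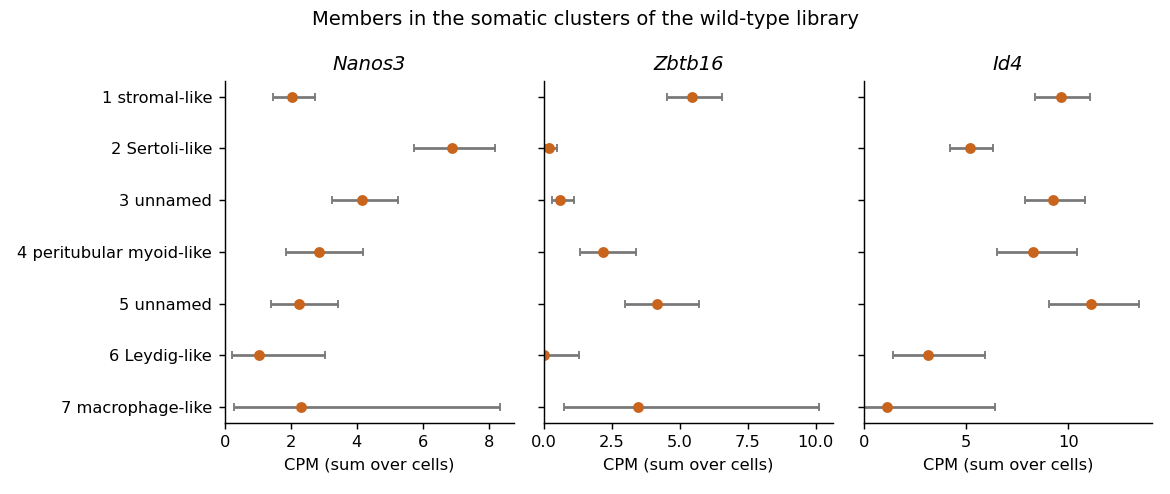
CPM (x axis) of *Nanos3*, *Zbtb16* and *Id4* in the 7 somatic clusters of the wild-type library, as sums over the cells of a cluster with 95% Poisson intervals. *Nanos3* peaks in Sertoli-like cells (6.89 CPM) and *Zbtb16* in stromal-like cells (5.45 CPM), while *Id4* lies between 5.19 and 11.1 CPM in clusters 1 to 5.

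Across germ cells and the 7 somatic clusters of wild type, 8 values that share one library, the genes whose log2(CPM + 1) was most like that of *Nanos3* were *Otud3* (Pearson r = 0.983) and *Mlxip* (0.982). Those most like *Zbtb16* were *Kctd20* (0.986) and *Ggt7* (0.986), and those most like *Id4* were *Kars* (0.994) and *Scaper* (0.992). For *Sall4* (*Mov10l1*, *Gtsf1*), *Dazl* (*Taf4b*, *Xlr3c*), *Sohlh1* (*Trap1a*, *Rpl10l*), *Lin28a* (*Cldn34b1*, *Ovol2*) and *Pou5f1* (*Cdh20*), 386 to 465 genes came nearly as close, so the order among them carries little. *Nanos2* and *Dppa3* had too few UMIs for this measure.

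Most gonocytes carried several regulators at once, stem cell and differentiation regulators among them. Genes found in most cells must share many of them, so the overlap of the frequent genes mainly restates their shares. A wild-type germ cell carried a median of 6 of the 10 regulators, with a range of 1 to 9. *Sall4*, *Zbtb16*, *Dazl*, *Sohlh1* and *Id4* were found together in 76 of 124 cells. *Sohlh1* and *Id4*, which act on bHLH transcription in opposite ways, shared 99 cells. Of 45 pairs of regulators 44 were found together in at least 1 cell, and 10 pairs in at least 50% of cells. *Nanos2* with *Dppa3*, the 2 rarest, was the pair never found together.

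*Nanos2* and *Nanos3* overlapped, and 6 of the 8 cells with *Nanos2* also had *Nanos3* (75.0%, 34.9 to 96.8%) against 37 of the 116 without *Nanos2* (31.9%, 23.6 to 41.2%). The median depth was 44989.5 and 33463.5 UMIs in these groups. Either *Nanos* gene was found in 45 cells. *Pou5f1* was found in 7 of the 8 *Nanos2* cells, and *Sall4*, *Dazl*, *Sohlh1* and *Id4* in all 8. All 55 *Lin28a* cells and all 60 *Pou5f1* cells had *Sall4*, whereas the 14 cells without *Sall4* had no UMI of either, at a median of 12201.5 UMIs against 37281.5 UMIs with *Sall4*. *Lin28a* and *Pou5f1* shared 35 cells, and either was found in 80.

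**Figure D3:**
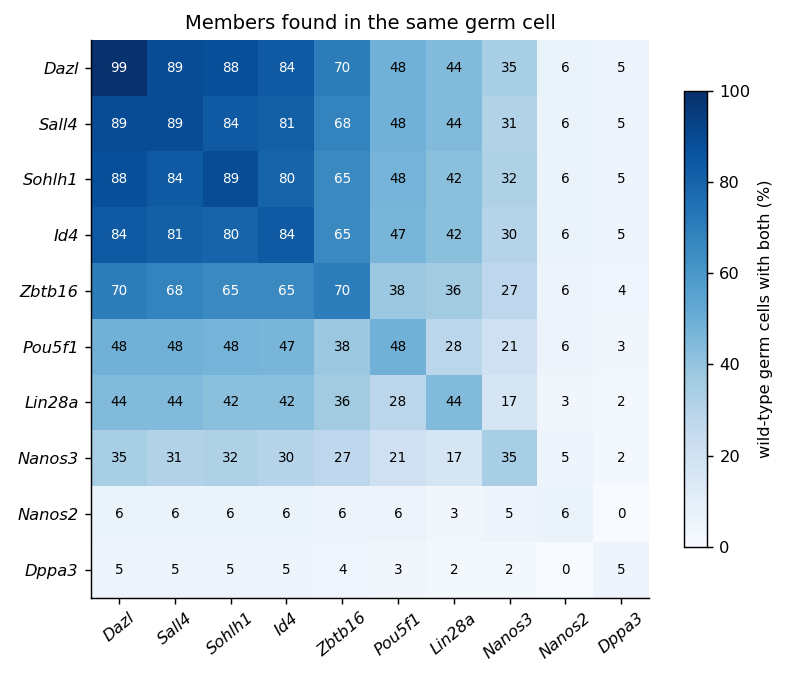
Percentage of the 124 wild-type germ cells with a UMI of both genes of a pair (rows and columns, ordered by their own share, which is on the diagonal), with darker blue for more cells. The 5 most frequent genes share at least 65% of cells in every pair, and *Nanos2* with *Dppa3* is at 0%.

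As a description over 124 cells, which share 1 library, the Spearman correlation of cell CPM was highest for *Sall4* with *Id4* (0.44) and *Zbtb16* with *Id4* (0.44). It was 0.38 for *Sall4* with *Dazl* and 0.35 for *Sall4* with *Zbtb16*, *Lin28a* with *Dazl* and *Dazl* with *Sohlh1*. Pairs with *Nanos2*, *Nanos3* or *Dppa3*, whose UMIs are few, reached at most 0.20. Correlations of the GFP transgene with the regulators reached 0.33 (with *Dazl*). The part of somatic RNA in all these values was not tested. The GFP transgene was found in 92 germ cells (74.2%) at 105 CPM. It was found in 50 of 60 cells with *Pou5f1* (83.3%, 71.5 to 91.7%) and in 42 of 64 without (65.6%, 52.7 to 77.1%), at 118 and 88.2 CPM and at median depths of 39108.5 and 28125.5 UMIs.

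A UMI of both *Mki67* and *Top2a*, which encode the Ki67 antigen and a topoisomerase of dividing cells, was found in 73 of 124 wild-type germ cells (58.9%, 49.7 to 67.6%) and in 24.2% of the shallower somatic cells. Their levels went the other way, with *Mki67* at 154 CPM in germ cells against 213 CPM in somatic cells (ratio 0.724, 0.669 to 0.783) and *Top2a* at 313 against 370 CPM (0.844, 0.799 to 0.892). Germ cells with both had a median of 40554 UMIs and the other 51 germ cells 24107 UMIs, so detection of both also followed depth. Thinned to 10000 UMIs, 46.4% of germ cells would keep both. The share was 56.0% without the 40 germ cells over 1000 CPM of Sertoli cell markers, and the part of RNA from somatic cells in these UMIs was not tested.

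Of the 8 regulators compared, *Lin28a* alone was called higher in the cells with both genes, against 2.75% of 11944 genes called higher and 5.27% called lower. *Lin28a* was at 32.1 CPM (26.1 to 39.0) in 45 of 73 cells with both and at 12.9 CPM (7.22 to 21.3) in 10 of the other 51, a ratio of 2.48 (1.44 to 4.60). Its share at 10000 UMIs was 27.7% against 9.99%. The ratio was 1.95 when at least 2 UMIs of each gene were asked for and 1.57 when either gene was enough, and neither was called. *Zbtb16* was at 68.3 and 44.7 CPM (ratio 1.53, 1.12 to 2.11) and *Sohlh1* at 96.2 and 151 CPM (0.639, 0.528 to 0.774), both under 2-fold. When either gene was enough, the *Sohlh1* ratio was 0.968. *Sall4* (0.964, 0.843 to 1.10) and *Dazl* (0.984, 0.926 to 1.05) were at nearly the same level in both groups of cells. The ratio was 0.838 for *Id4* (0.700 to 1.01), 0.655 for *Pou5f1* (0.431 to 1.01) and 0.891 for *Nanos3* (0.539 to 1.52). Of the 8 *Nanos2* cells 7 had both *Mki67* and *Top2a*, as did 2 of the 6 *Dppa3* cells.

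**Figure D4:**
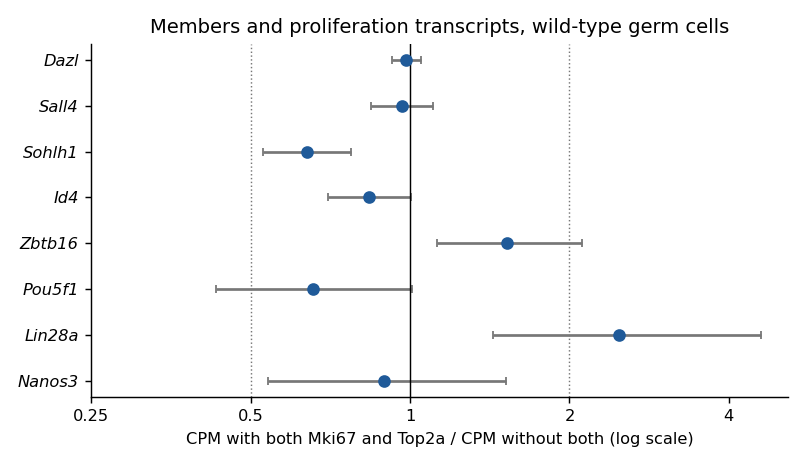
Ratio of CPM (x axis, log scale) in the 73 wild-type germ cells with a UMI of both *Mki67* and *Top2a* over the 51 without both, for the 8 regulators with at least 20 UMIs, with 95% intervals; dotted lines mark 2-fold. *Lin28a* (2.48) lies beyond 2-fold, while *Dazl* (0.984) and *Sall4* (0.964) lie close to 1.

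Genes that work with the regulators were described by lists, to be read against the 25.3% of all genes called higher and the 17% called lower in germ cells. Of 12 undifferentiated spermatogonia genes compared all 12 were called higher in germ than in somatic cells, among them *Ret*, the receptor kinase for GDNF, at 598 UMIs against 10 and *Pou3f1* at 742 UMIs against 40. Of 7 differentiation genes 6 were called higher, with *Stra8*, a target of retinoic acid, 658-fold (315 to 1653) and *Dmrt1*, which Sertoli cells also use, 3.99-fold (3.67 to 4.33). Of 11 pluripotency and primordial germ cell genes 9 were called higher and 2 lower, and *Dppa4* was found in 110 germ cells. Of 13 NANOS partners and CCR4-NOT subunits 4 were called higher, and *Dnd1*, which encodes an RNA-binding partner of NANOS2, led at 21.4-fold (18.1 to 25.4), whereas *Cnot1*, the scaffold of the complex, was at 1.66 (1.53 to 1.80). Of 8 let-7 handling genes 4 were called higher and 1 lower, with *Lin28b*, the paralog of *Lin28a*, at 136-fold (80.6 to 246). The other *Id* genes went the other way from *Id4*: *Id1* was at 0.110 (0.0921 to 0.132) and *Id3* at 0.140 (0.121 to 0.162) of the somatic level, and of 6 *Id* and E protein genes 4 were called lower and none higher. Of 15 SALL and NuRD genes 3 were called higher, and *Boll* and *Nanos1*, the paralogs of *Dazl* and of *Nanos2* and *Nanos3*, were both called higher. In none of these lists was a gene called between cells with and without both *Mki67* and *Top2a*, where 2.75% of all genes were called higher and 5.27% lower.

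In knockout-labelled germ cells *Sall4*, *Id4*, *Zbtb16* and *Nanos3* were called lower, *Sohlh1* was not called, and *Dppa3* was found in a larger share of cells but had too few UMIs to be called. The median ratio of 12372 genes compared was 0.600, so that ratios are best read against it, and 29.6% of genes were called lower and 7.69% higher. Ribosomal protein genes held 34.1% of UMIs in these cells and 16.5% in wild type, the median share of mitochondrial UMIs was 2.78% and 5.43%, and the median number of genes was 6579 and 7262.5. With CPM taken outside ribosomal protein and mitochondrial genes, the median ratio was 0.738, 21.9% of genes were called lower, and the 4 regulators named above remained called. Of the 8 regulators compared 4 were called lower and none higher, with a median ratio of 0.305. Wild-type germ cells held 4280249 UMIs and knockout-labelled ones 463254, so the minimum of 20 UMIs was met mostly through wild type. *Dppa3*, higher in knockout-labelled germ cells, fell under that minimum, and these counts leave it out. The shares over all genes have the same limit. A knockout-labelled germ cell carried a median of 4 regulators (2 to 8) against 6 in wild type, at nearly the same median depth.

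*Sall4* was at 32.4 CPM (18.1 to 53.4; 15 UMIs in 8 of 12 cells, at most 3 in a cell) against 254 CPM, a ratio of 0.128 (0.0711 to 0.211). *Id4* was at 15.1 CPM (6.08 to 31.1; 7 UMIs in 5 cells) against 134 CPM, a ratio of 0.112 (0.0450 to 0.233). *Zbtb16* was at 4.32 CPM (0.523 to 15.6), from 2 UMIs in 2 cells, against 61.9 CPM, a ratio of 0.0697 (0.00840 to 0.254). *Nanos3* had 0 UMIs against 78 in wild type, at least 2.81-fold lower by a floor of 3 UMIs over the 12 cells, while the exact interval of the ratio starts at 2.23-fold lower. All 4 remained called when each ratio was divided by the median of all genes, a setting under which 12.9% of genes were called lower.

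The somatic cells give a second reading of the same genes. *Nanos3* and *Zbtb16* were at the same somatic level in both libraries, with ratios of 1.001 (0.841 to 1.19) and 0.999 (0.804 to 1.24). *Id4* was also lower in knockout-labelled somatic cells, at 4.59 against 8.23 CPM, a ratio of 0.558 (0.485 to 0.641). By cluster it was at 4.83 against 9.64 CPM in stromal-like, 3.14 against 5.19 CPM in Sertoli-like and 3.46 against 9.28 CPM in cluster 3. The intervals overlapped in Sertoli-like cells (2.24 to 4.27 against 4.201 to 6.35 CPM), in peritubular myoid-like cells, at 6.84 (5.02 to 9.09) against 8.30 CPM (6.51 to 10.4), in Leydig-like (1 UMI against 9) and macrophage-like cells (2 UMIs against 1) and in cluster 5, at 8.66 (6.69 to 11.04) against 11.1 CPM (9.07 to 13.4). The part of this in the lower *Id4* of germ cells was not tested. In those somatic cells *Dazl* was at 0.198 against 0.841 CPM and *Sall4* at 0 against 12 UMIs, while *Ddx4* was at 0.806 against 0.917 CPM (ratio 0.879, 0.605 to 1.27) and *Pou5f1* at 0.259 against 0.242 CPM (1.07, 0.522 to 2.17).

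*Dazl* was at 665 CPM (593 to 743; 308 UMIs, 8 to 48 in each of the 12 cells) against 1227 CPM, a ratio of 0.542 (0.482 to 0.608), close to the median of all genes. *Lin28a* (6 UMIs in 3 cells, 0.482, 0.173 to 1.08) and *Pou5f1* (9 UMIs in 6 cells, 0.815, 0.362 to 1.61) had intervals that include 1. *Sohlh1* was found in all 12 cells, with 1 to 8 UMIs each and 56 in sum, at 121 CPM (91.3 to 157) against 111 CPM, a ratio of 1.09 (0.811 to 1.44). Divided by the median ratio of all genes, it was 1.82 for *Sohlh1* (1.35 to 2.40), which then lay above 1 but under 2-fold, and 0.903 for *Dazl* (0.803 to 1.01).

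*Dppa3* had 11 UMIs in 7 of 12 cells (58.3%, 27.7 to 84.8%), with at most 3 in a cell, against 6 UMIs in 6 of 124 wild-type cells (4.84%, 1.80 to 10.2%). Its level was 23.7 CPM (11.9 to 42.5) against 1.40 CPM (0.514 to 3.05), and the intervals did not overlap. The ratio was 16.9 (5.74 to 55.8), but with 17 UMIs in all it fell under the minimum of 20 and was not among the genes compared. The shares at 10000 UMIs were 19.5% and 1.25%. *Dppa3*, the lowest regulator in wild type, was in these cells at a level whose interval overlapped those of *Sall4* (32.4 CPM) and *Pou5f1* (19.4 CPM). *Nanos2* had 0 UMIs in the 12 cells. With 3 UMIs as the floor, which would be 6.48 CPM there, this count cannot be told from the wild-type level of 2.34 CPM.

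**Figure D5:**
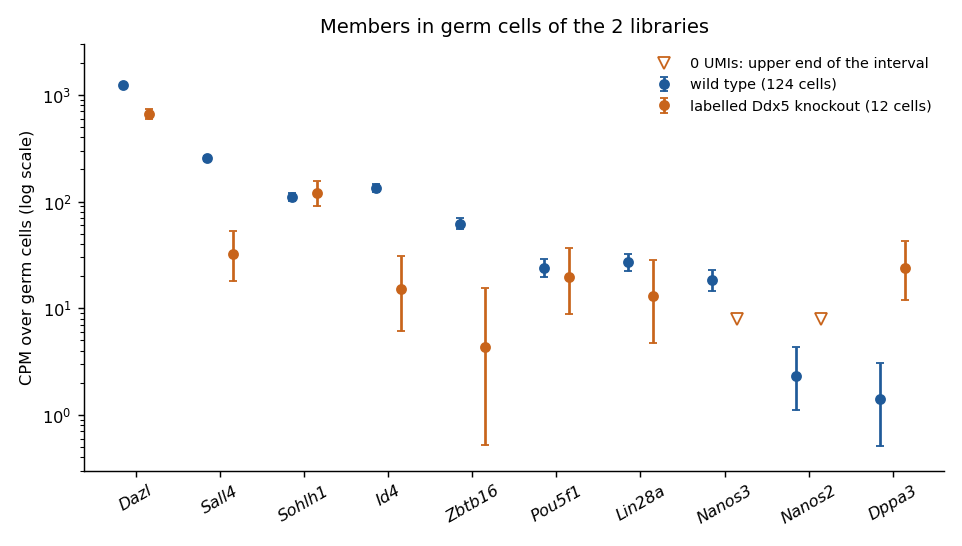
CPM (y axis, log scale) of the 10 regulators, summed over the 124 wild-type germ cells (blue) and the 12 knockout-labelled germ cells (orange), with 95% Poisson intervals; open triangles mark the upper end of the interval where no UMI was counted. *Sall4*, *Id4*, *Zbtb16* and *Nanos3* lie below wild type, the intervals of *Sohlh1* overlap and *Dppa3* lies above wild type (23.7 against 1.40 CPM).

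The 12 cells also had fewer transcripts of proliferation, with *Mki67* at 8.63 against 154 CPM and both *Mki67* and *Top2a* in 3 of 12 cells. Set against the 51 wild-type germ cells without both, the ratios were 0.124 for *Sall4* (0.0686 to 0.208), 0.0992 for *Id4* (0.0393 to 0.209), 0.0965 for *Zbtb16* (0.0114 to 0.366), 0.803 for *Sohlh1* (0.583 to 1.09), 1.003 for *Lin28a* (0.319 to 2.74) and 6.90 for *Dppa3* (2.04 to 29.7). Markers of other cell types differed too. The 9 Sertoli cell markers summed to 1913 CPM in wild-type germ cells (cell median 143, highest 13953 CPM) and to 119 CPM in the 12 cells (cell median 105 CPM). The 7 stromal markers summed to 464 and 706 CPM. Without the 40 wild-type germ cells over 1000 CPM of Sertoli markers, *Sall4*, *Id4*, *Zbtb16* and *Nanos3* were still called lower and *Dazl* (0.472) and *Lin28a* (0.388) were called as well, with 31.4% of all genes called lower.

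Genes known to act beside the regulators were counted in the same comparison, in which 29.6% of all genes were called lower and 7.69% higher. Of 12 undifferentiated spermatogonia genes 7 were called lower and 1 higher (median ratio 0.131). *Pou3f1* had 4 UMIs against 742, *Ret* 1 against 598, and *Gfra1*, the co-receptor for GDNF, and *Egr2* had none against 452 and 131. The higher one was *Tspan8*, a surface protein of stem cell-enriched spermatogonia, found in all 12 cells at a ratio of 6.64 (5.02 to 8.75), which is named because it stood apart. Of 7 differentiation genes 4 were called lower (median 0.247). *Dmrt1* had 1 UMI against 703, *Stra8* 1 against 251, and *Sohlh2*, which encodes the bHLH partner of SOHLH1, 0 against 180, at least 6.49-fold lower by the same floor (the exact interval of the ratio reaches up to 0.191). The study had reported *Gfra1*, *Ret*, *Etv5* and *Dmrt1* as lower in knockout gonocytes of these same data. It also named *Sall4*, *Zbtb16* and *Id4*. The counts of both lists and of the regulators are therefore not independent of its result.

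Pluripotency and primordial germ cell genes were mixed, with 4 called higher and 2 lower of 11 (median 1.32). *Dppa4*, which encodes a chromatin protein of pluripotent cells, was found in all 12 cells at a ratio of 1.74 (1.39 to 2.16), and *Dppa5a* was at 0.795 (0.546 to 1.12). *Tfap2c* had 0 UMIs against 46 (the exact interval of the ratio reaches up to 0.771), and *Tcl1* 1 against 336. The 4 called higher, named after their values were seen, were *Utf1* (6.07, 4.82 to 7.61), *Prdm1* (5.04, 2.27 to 10.6), *Klf4* (3.37, 2.43 to 4.61) and *Zfp42* (2.70, 1.53 to 4.56). *Utf1*, which encodes a chromatin factor of embryonic stem cells and early spermatogonia, had 130 UMIs in 12 cells against 198 UMIs in 124 cells.

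The next 3 lists had shares called lower near the 29.6% of all genes. Of 13 NANOS partners and CCR4-NOT subunits 5 were called lower and 1 higher. *Cnot1* was at 0.253 (0.146 to 0.408), *Cnot6l*, a deadenylase subunit, at 0.190 (0.0815 to 0.378) and *Cnot9* had 0 UMIs against 226. Of 8 let-7 handling genes 3 were called lower, among them *Drosha* (0.261, 0.153 to 0.415) and *Dicer1* (0.344, 0.211 to 0.531), the RNases of microRNA processing. Of 6 *Id* and E protein genes 2 were called lower, *Tcf3* (0.125, 0.0455 to 0.273) and *Tcf12* (0.488, 0.313 to 0.730), and 1 higher, *Id2* (2.20, 1.16 to 3.91). Of 15 SALL and NuRD genes 8 were called lower and 1 higher. *Chd4*, the NuRD helicase, was at 0.360 (0.282 to 0.452) and *Rbbp7* at 0.666 (0.521 to 0.839). *Sall1* and *Sall2*, both called lower, had 0 UMIs against 37 each. Their exact interval of the ratio reaches up to 0.969, past the median ratio of all genes of 0.600. *Nanos1* (0.552) and *Boll* (0.525) were not called.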

How the data were processed

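Single-cell RNA sequencing was performed by the authors on whole P2 testes, and UMIs per gene and barcode were counted with Cell Ranger 3.1.0 (submitters' processing notes, build GRCm38). The reference included GFP and CRE. The deposited values are UMI counts, not normalized and before any filter on cells, for 12186 barcodes with 2 suffixes. The genotype behind a suffix is not written in the table. Since suffix 4 has fewer barcodes (5423) than the number of wild-type cells stated by the study, suffix 3 was taken as wild type, and 6328 of its cells had over 2000 genes at the filter below.

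The filter of the study was applied (2000 genes or more and no more than 10% mt- UMIs). UMIs were summed over the germ or somatic cells of a library and divided by the total of that group (CPM). Sums have exact Poisson, shares exact Clopper-Pearson and ratios exact conditional binomial intervals (95%). PCR duplicates are removed by UMIs, and intervals and floors cover counting error only, not the spread between animals. A gene with at least 20 UMIs in both groups together was called when its ratio was over 2-fold and the interval excluded 1. Thinned shares are the expected shares at 5000 or 10000 UMIs, without shallower cells. Clusters came from Seurat 5.3.0 (SCTransform, 15 principal components, resolution 0.1) and were named from marker lists. Doublets were called with Scrublet in scanpy 1.11.5 (284 of 6329 and 296 of 4950 cells) and kept. No barcode is shared between the libraries by its full name, and 12 barcode sequences occur under both suffixes. The ratio and the thinning were tested on simulated data. Named genes were the 10 regulators and, for each list, the 2 with most wild-type germ cell UMIs and the 2 with the ratio farthest from 1. Some genes that these rules name are not reported here. The regulators and the lists were chosen with earlier results of these data known. Gene positions are from GENCODE and sequences from RefSeq.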

Additional observations from a re-analysis of the deposited data

Results flagged for a closer look

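Beyond the kept cells, 24 wild-type barcodes that failed the limits on genes (16) or mitochondrial UMIs (9) carried at least 3 of the 4 germ cell markers. They held 443 UMIs of the 10 regulators, or 2052 CPM, against 29.2 CPM in the 388 failed barcodes with no marker, and were looked at because no main comparison used them. They entered only the recomputation without limits on genes or mitochondrial UMIs, which had 148 wild-type germ cells. *Dazl* (258 UMIs in 22 barcodes, 1195 CPM), *Sall4* (80 UMIs, 371 CPM) and *Id4* (39 UMIs, 181 CPM) led, *Nanos3* had 8 UMIs and *Dppa3* had 0, at a median of 3556.5 UMIs per barcode.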

How the results depend on the processing

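No paired analysis was possible because the table does not separate the numbered libraries, and for the same reason no library could be left out in turn. Depth moved the shares most. Thinned to 5000 UMIs, 2 regulators were found in at least 50% of wild-type germ cells in place of 5, the median per cell was 3.11 in place of 6, and 28.4% of cells had both *Mki67* and *Top2a*. At 10000 UMIs the median was 4.23 and that share 46.4%, and with either gene enough it was 85.5%. The count of regulators apart between cells with and without both genes was 0 in place of 1 with either gene enough, with at least 2 UMIs of each, and with the whole interval asked to lie beyond 2-fold. The other 78 of 87 recomputed values stayed close to the main value, counts within 1.5 times of it. That rule also covers 84 wild-type germ cells in place of 124 and 6 regulators called lower in place of 4, without the cells high in Sertoli markers. Of the recomputed shares and ratios of single regulators, 41 lay outside the interval of the main value and 473 did not. The numbers of germ cells under the limits on GFP and CRE, given below, are not among the 87 values. All 8 regulators compared remained higher in germ than in somatic cells. Under the limits of the study on GFP and CRE (as read here 51 against 4 cells, which are not the numbers of cells the study kept), *Lin28a* was called lower with 0 UMIs and *Nanos3* was not called. Over the alternatives, the ratio of the knockout-labelled library to wild type ran from 0.112 to 0.213 for *Sall4*, 0.0559 to 0.187 for *Id4*, 0 to 0.132 for *Zbtb16*, 0.610 to 1.36 for *Pou5f1*, 0.803 to 1.82 for *Sohlh1*, 0.472 to 0.903 for *Dazl* and 6.90 to 28.2 for *Dppa3*. For *Lin28a* it ran from 0 to 1.003. The restriction to the germ-like cluster, the removal of cells high in Sertoli markers, the comparison with wild-type cells without both *Mki67* and *Top2a* and the removal of the minimum of UMIs were added after seeing the data.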
